A study of Homo sapiens with 4 samples.

Results

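Accessible chromatin outside promoters was examined around 10 genes of neuronal adhesion and extracellular matrix, out of 19689 protein-coding genes. The genes are NCAM1, NCAM2, L1CAM, NRCAM, VCAN, TNC, CD44, RELN, DAB1 and CD40. They were chosen by name, with earlier results of these data known. Each was taken with its GENCODE gene body and 100 kb either side on hg38, which gave windows of 5.58 Mb in all. ATAC-seq, in which the Tn5 transposase inserts adapters into open chromatin, had been carried out on 4 libraries of 2 human cell lines. C4-2B, labelled as a prostate adenocarcinoma, is a line that responds to androgen, and C4-2BER, labelled as Enza_Resist and as neuroendocrine-like, was derived from it by keeping the cells in enzalutamide, an inhibitor of androgen signalling. According to the methods of the study, both lines were grown in the same serum-containing medium, with enzalutamide kept in that of C4-2BER. The presence of the drug and the derived line therefore cannot be told apart here, and C4-2BER is 1 derived line. The 2 libraries of a line were merged before peaks were called, so each line has 1 list of intervals, no difference here has a replicate check, and the intervals of reads and ratios in brackets cover counting error only. Wilson intervals of shares treat the intervals of a list as independent draws, which neighbouring ones are not, and are given as a description. The study had already named NCAM1, VCAN, CD40, TNC and DAB1 for greater accessibility near the promoter in C4-2BER, from these same lines and assay. Comparisons with all genes thus rest in part on genes picked for a related outcome, and are a description too.

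The windows held 277 of the 149676 intervals of C4-2B and 227 of the 118728 intervals of C4-2BER. Of these, 49 in C4-2B against 47 in C4-2BER had their summit within 2 kb of a protein-coding transcription start site (TSS) of any gene. The other 228 and 180 are called distal and are the subject of what follows. As a check of the labels, the luminal prostate markers KLK3, KLK2, TMPRSS2, FOXA1 and HOXB13 each had an interval at a promoter in both lists. Of 6 neuroendocrine markers 5 had one in C4-2B against 6 in C4-2BER, and the difference was NEUROD1.

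NCAM1, NCAM2, L1CAM and NRCAM are immunoglobulin-superfamily proteins of the cell surface that bind neighbouring cells and guide growing axons, and NCAM1 (CD56) is used in pathology to recognise neuroendocrine tumours. VCAN (versican) and TNC (tenascin C) are large matrix proteins, and CD44 is a receptor for hyaluronan, the polysaccharide that versican also binds. RELN (reelin) is a secreted protein whose signal passes through lipoprotein receptors to the adaptor DAB1 and sets the position of migrating neurons. CD40 is a receptor of the tumour necrosis factor receptor family that signals through TRAF proteins. Several of these genes are long, and intronic or flanking elements, open in only some cell types, are known to act on promoters from a distance.

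The strongest distal interval found in 1 line only, by -log10 q, was called in C4-2B and not in C4-2BER at each of the 10 genes. The same count was not made over all genes, so it is not a trait of these 10. Over the whole lists, line-only distal intervals with a -log10 q of at least 10 numbered 19779 in C4-2B against 3663 in C4-2BER. Their summits are shown because each is its gene's strongest line-only interval, as 151 bases of the plus strand of hg38, with matches to the motifs searched in capitals. The motifs in these sequences are the androgen half-site TGTTCT, the forkhead motif TGTTTAC, the E-boxes CAGATG and CAGCTG, the AP-1 motif TGACTCA or TGAGTCA, and the palindromic androgen response element, each read on both strands. The response element overlaps a half-site in the CD40 sequence.
NCAM1, chr11:113340075-113340225, an intron of the neighbouring gene TTC12: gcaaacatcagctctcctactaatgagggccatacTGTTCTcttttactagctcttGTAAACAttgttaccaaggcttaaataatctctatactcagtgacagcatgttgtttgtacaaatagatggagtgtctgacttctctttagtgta
NCAM2, chr21:21135602-21135752, intron 1: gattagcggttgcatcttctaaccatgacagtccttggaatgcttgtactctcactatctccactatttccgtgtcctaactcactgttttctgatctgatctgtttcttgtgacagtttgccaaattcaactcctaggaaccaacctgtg
L1CAM, chrX:153801858-153802008, downstream flank: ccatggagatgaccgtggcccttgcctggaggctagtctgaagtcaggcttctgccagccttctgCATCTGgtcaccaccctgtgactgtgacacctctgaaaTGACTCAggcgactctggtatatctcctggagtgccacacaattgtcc
NRCAM, chr7:108280283-108280433, intron 3: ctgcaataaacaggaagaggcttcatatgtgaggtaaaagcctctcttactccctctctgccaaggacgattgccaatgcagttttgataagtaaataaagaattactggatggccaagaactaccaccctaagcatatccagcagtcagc
VCAN, chr5:83394315-83394465, upstream flank: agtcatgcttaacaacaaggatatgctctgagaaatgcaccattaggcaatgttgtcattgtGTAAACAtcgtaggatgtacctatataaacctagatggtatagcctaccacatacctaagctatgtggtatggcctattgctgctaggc
TNC, chr9:114969364-114969514, downstream flank: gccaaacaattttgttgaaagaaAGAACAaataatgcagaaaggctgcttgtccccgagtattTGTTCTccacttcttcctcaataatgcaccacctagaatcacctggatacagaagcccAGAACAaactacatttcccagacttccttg
CD44, chr11:35158759-35158909, intron 1: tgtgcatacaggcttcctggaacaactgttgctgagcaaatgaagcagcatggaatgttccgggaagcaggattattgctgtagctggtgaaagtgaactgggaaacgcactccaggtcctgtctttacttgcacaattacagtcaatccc
RELN, chr7:103981060-103981210, intron 1: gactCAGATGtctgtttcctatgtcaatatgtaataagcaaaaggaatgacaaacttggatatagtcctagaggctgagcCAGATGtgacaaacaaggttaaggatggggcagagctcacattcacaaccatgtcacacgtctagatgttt
DAB1, chr1:57727176-57727326, intron: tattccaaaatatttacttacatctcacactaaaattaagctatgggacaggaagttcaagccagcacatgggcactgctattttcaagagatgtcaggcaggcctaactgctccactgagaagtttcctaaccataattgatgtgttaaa
CD40, chr20:46222851-46223001, downstream flank: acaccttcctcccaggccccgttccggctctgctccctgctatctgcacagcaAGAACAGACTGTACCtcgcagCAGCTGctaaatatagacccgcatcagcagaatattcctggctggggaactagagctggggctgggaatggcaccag

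In contrast, a pair of shared sites had the highest ratio of C4-2BER to C4-2B reads in the windows, and were chosen for display after their values were seen. The bases are centred on the C4-2BER summit. At NCAM1 they lie outside the C4-2B interval, whose summit is 603 bp away. Neither printed sequence matched any of the 12 motifs, while an E-box CAGCTG lay within 100 bp of the C4-2B summit at NCAM1.
NCAM1, chr11:113014343-113014493, intron 1: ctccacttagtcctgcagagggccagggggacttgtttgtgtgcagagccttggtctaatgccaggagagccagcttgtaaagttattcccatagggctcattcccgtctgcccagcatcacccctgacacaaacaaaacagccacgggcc
CD40, chr20:46220895-46221045, downstream flank: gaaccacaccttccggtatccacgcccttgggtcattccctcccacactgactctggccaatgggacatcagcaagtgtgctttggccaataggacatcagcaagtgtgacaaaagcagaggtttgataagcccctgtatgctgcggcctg

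All 10 genes had more distal intervals in C4-2B than in C4-2BER. The same was true of 77.1% of the 19556 protein-coding genes with a distal interval, while 13.4% had more in C4-2BER. The C4-2B list is the longer one, and with equal numbers of top intervals 5 of the 10 genes had more in C4-2BER. The plot of distal intervals by gene shows the counts, which ran from 11 in C4-2B against 7 in C4-2BER at L1CAM to 55 and 47 at DAB1, the longest gene.

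**Figure D1:**
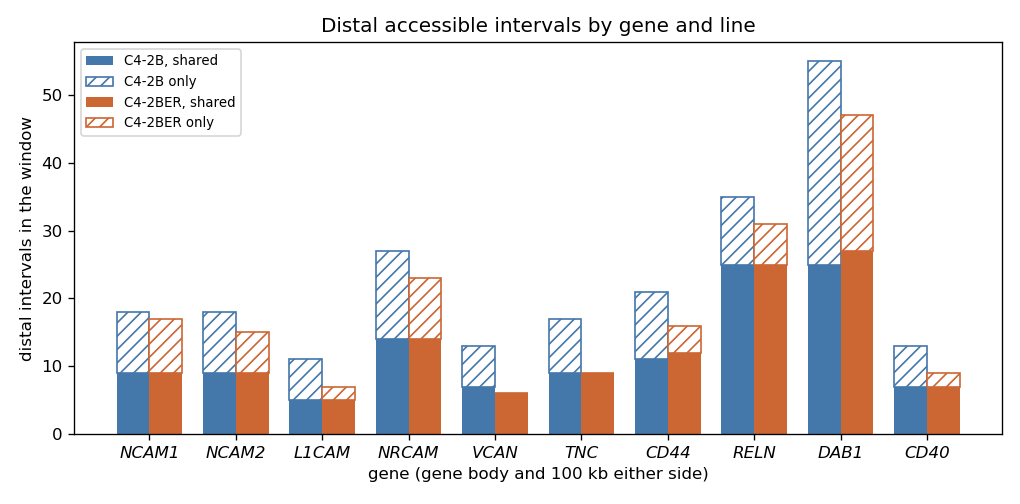
Bars give the number of distal intervals in each gene's window, blue for C4-2B and orange for C4-2BER, with filled parts for intervals shared by at least 1 bp and hatched parts for intervals of 1 line only. DAB1 had the most intervals of both lines (55 and 47), and VCAN and TNC had no C4-2BER-only interval.

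In C4-2B, 107 of the 228 distal intervals were line-only, or 46.9% (Wilson 95% interval 40.6 to 53.4), beside 41.9% of all distal intervals of that list. In C4-2BER, 57 of 180 were line-only, or 31.7% (25.3 to 38.8), beside 22.4% of its whole list. With lists of equal length the order of the lines was reversed, at 38.5% in C4-2B against 43.9% in C4-2BER, and it was 47.1% against 50.9% in the top 50000 of each list. Most of the C4-2BER-only intervals were weak. At a -log10 q of 10 or more there were 43 in C4-2B, or 18.9% of its distal intervals in the windows beside 15.7% of the whole list. In C4-2BER there were 8, or 4.44% beside 3.81%. A line-only interval is one not called in the other list, which holds no summit under 8 reads in C4-2B or 7 in C4-2BER, so weaker accessibility there cannot be seen.

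By position, of the 57 C4-2BER-only intervals 43 were intronic, 1 exonic, 10 in the downstream flank and 3 in the upstream flank. Of the 107 C4-2B-only intervals, 52 were intronic, 6 exonic, 31 downstream and 18 upstream. The shared sites of the windows were 66 intronic, 3 exonic, 32 downstream and 19 upstream. The same split was not made for the windows of other genes, so these counts cannot show whether the 10 genes differ from others. By gene body and flank, C4-2B had 128 and 100 distal intervals and C4-2BER had 113 and 67. Gene bodies make up 64.2% of the length of the windows, and DAB1, the longest, supplied 20 of the 57.

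To compare the sites open in both lines, the reads over each summit were recovered from the deposited fold and p value. Their ratio is given as log2 of C4-2BER over C4-2B, less the median over all 91160 shared sites, so that 0 (the centre) is the usual ratio. That median was -0.41 before centring, of which depth accounts for -0.26. Of the 120 shared distal sites in the windows, 11 had at least 2-fold higher reads in C4-2BER (9.17%, 5.20 to 15.7), beside 3.67% of all shared distal sites. Another 10 had at least 2-fold lower reads (8.33%, 4.59 to 14.7), beside 12.5% of all. The higher sites belonged to CD40 (4), DAB1 (4), NCAM1 (2) and NCAM2 (1). The lower ones belonged to CD44 (4), RELN (4), TNC (1) and DAB1 (1). The counting interval of the ratio left out 0 at all 11 higher sites and at 8 of the 10 lower ones. These sites were picked by that same ratio, so their intervals are no separate support. Over all 120 sites, the interval lay above 0 at 15 and below 0 at 14. The matching share over all shared distal sites was not taken.

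The genes thus fell to either side. The median ratio of a gene's shared sites was above the centre for 7 of 10 genes, beside 42.1% of the 15828 genes with at least 5 shared sites. With only depth removed it was above 0 for 5 of 10, beside 24.2%. Among those genes the medians had quartiles of -0.28 and 0.15. CD40, NCAM1, NCAM2, L1CAM and NRCAM lay above this range, and CD44 and VCAN lay below it. Pooled over the 120 sites, the median was 0.13 (-0.021 with depth alone removed) beside -0.12 over all shared distal sites, and 68 of the 120 were above the centre, beside 42.3% of all.

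**Figure D2:**
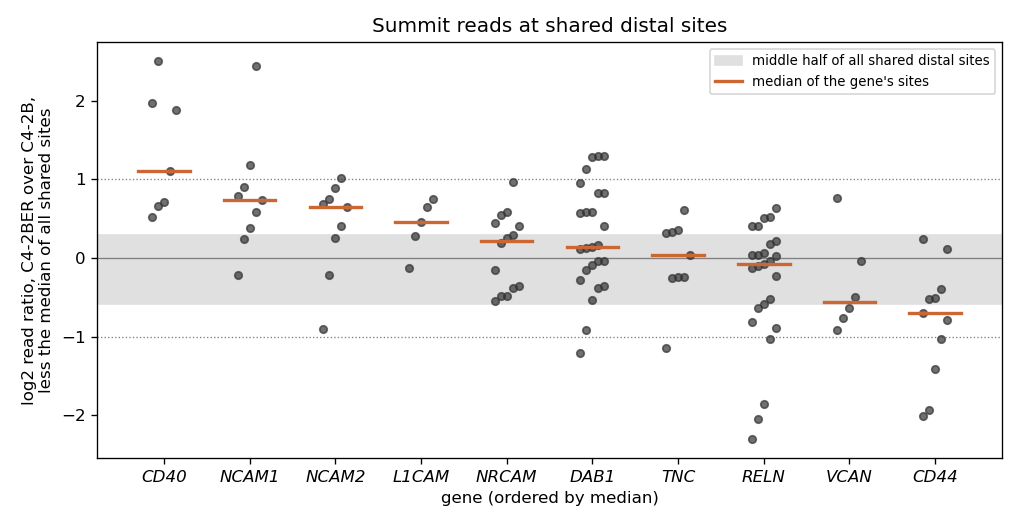
Each point is a shared distal site, with its centred log2 read ratio on the vertical axis, grouped by gene. Orange lines mark the medians, from 1.11 at CD40 to -0.70 at CD44, the grey band spans the quartiles of all shared distal sites (-0.59 to 0.29), and dotted lines mark a 2-fold ratio.

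NCAM1 (ENSG00000149294, chr11:112961275-113278436, plus strand), the neural cell adhesion molecule CD56, had 18 distal intervals in C4-2B, of which 9 were line-only, and 17 in C4-2BER, of which 8 were. Inside the gene the order turned, with 7 in C4-2B against 11 in C4-2BER. Intron 1, the long intron behind the promoter, held 7 C4-2BER-only intervals between 22.7 and 231 kb from the TSS, against 1 C4-2B-only interval. These 7 were weak, with 11 to 20 reads each. Of them, 5 lay in a stretch of 13.7 kb, from 192.6 to 206 kb.

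In the same intron, the site at 53.6 kb had 12 reads in C4-2B (chr11:113014849-113015054) against 49 in C4-2BER (chr11:113014252-113015112). Its centred ratio was 2.44 (1.51 to 3.49), or 5.43-fold. The summits of the lines were 603 bp apart here, so this ratio sets side by side different ends of a wide C4-2BER interval. The site at 153 kb was the strongest distal site of NCAM1 in C4-2BER, with 52 reads against 40 in C4-2B (ratio 0.79). A site at -2.60 kb had 29 reads in C4-2BER against 17 in C4-2B (ratio 1.18, 0.27 to 2.14). The ratio does not divide by local background, which was higher here in C4-2BER. The fold enrichment over that background went the other way, at 3.53 in C4-2BER against 4.52 in C4-2B.

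Of the 9 shared sites of NCAM1, 8 were above the centre, and their median of 0.73 ranked at percentile 99.2 among genes with at least 5 such sites. The median was 0.28 without intervals of a -log10 q under 10 and 0.31 with flanks of 200 kb. The C4-2B-only intervals of NCAM1 were in part much stronger than the C4-2BER-only ones. The first of the sequences above, with 79 reads in C4-2B and no call in C4-2BER, lies in TTC12 at 379 kb from the NCAM1 TSS, and holds a half-site and a forkhead motif. An interval at 309 kb in intron 18 had 38 reads.

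NCAM2 (ENSG00000154654, chr21:20998409-21543329, plus strand), the olfactory cell adhesion molecule, had all of its distal intervals inside the gene, 18 in C4-2B against 15 in C4-2BER. Of its 9 shared sites 7 were above the centre, with a median of 0.65 (percentile 98.7). Reads at these sites were low, with 10 to 72 in C4-2B against 13 to 29 in C4-2BER. The site at 98.8 kb in intron 1 had 29 reads in C4-2BER and 19 in C4-2B (ratio 1.02, 0.14 to 1.94). The strongest C4-2B site went the other way, with 72 reads at 9.35 kb (chr21:21007342-21008017) against 29 in C4-2BER (ratio -0.90, -1.58 to -0.26). When weak intervals (-log10 q under 10) were left out, the median of NCAM2 was -0.31, so its direction rests on weak sites, and with flanks of 200 kb it was 0.27. The 9 C4-2B-only intervals reached 37 reads, in intron 1, and the 6 C4-2BER-only ones reached 15.

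L1CAM (ENSG00000198910, chrX:153861514-153886173, minus strand), an axonal adhesion protein, lies in a gene-rich region, and 18 of 29 C4-2B intervals and 20 of 27 C4-2BER intervals of its window were in promoters. No distal interval of either line lay inside the gene. Its 5 shared distal sites were all in the flanks, 4 of them above the centre, with a median of 0.45 (percentile 95.2). It was 0.11 with flanks of 200 kb, 0.19 at a -log10 q of 10 or more and 0.24 at 5 or more. None of the 5 had a counting interval that left out 0. The strongest, at -61.3 kb, had 66 reads in C4-2B against 68 in C4-2BER. The sequence shown for L1CAM, at 84.2 kb, had 35 reads in C4-2B and was accompanied by a second C4-2B-only interval of 31 reads at 85.2 kb and a C4-2BER-only interval of 20 reads at 85.8 kb.

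NRCAM (ENSG00000091129, chr7:108147623-108456717, minus strand), an L1-family protein of the node of Ranvier, had 27 distal intervals in C4-2B against 23 in C4-2BER. Its 14 shared sites had a median of 0.22 (percentile 82.0), which was 0.021 with flanks of 50 kb and turned to -0.15 with 200 kb. They ranged from -0.54 to 0.97, so none reached a 2-fold ratio. Among the line-only intervals, C4-2B had 85 reads in intron 3 (chr7:108279883-108280624, percentile 92.6 of its list) and 74 in intron 1 (chr7:108399815-108400205) with no call in C4-2BER. The 9 C4-2BER-only intervals had 7 to 23 reads, the highest of them also in intron 3, at 194 kb. The strongest distal C4-2BER interval of the window, with 104 reads against 113 in C4-2B, was in the neighbouring gene LAMB4.

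**Figure D3:**
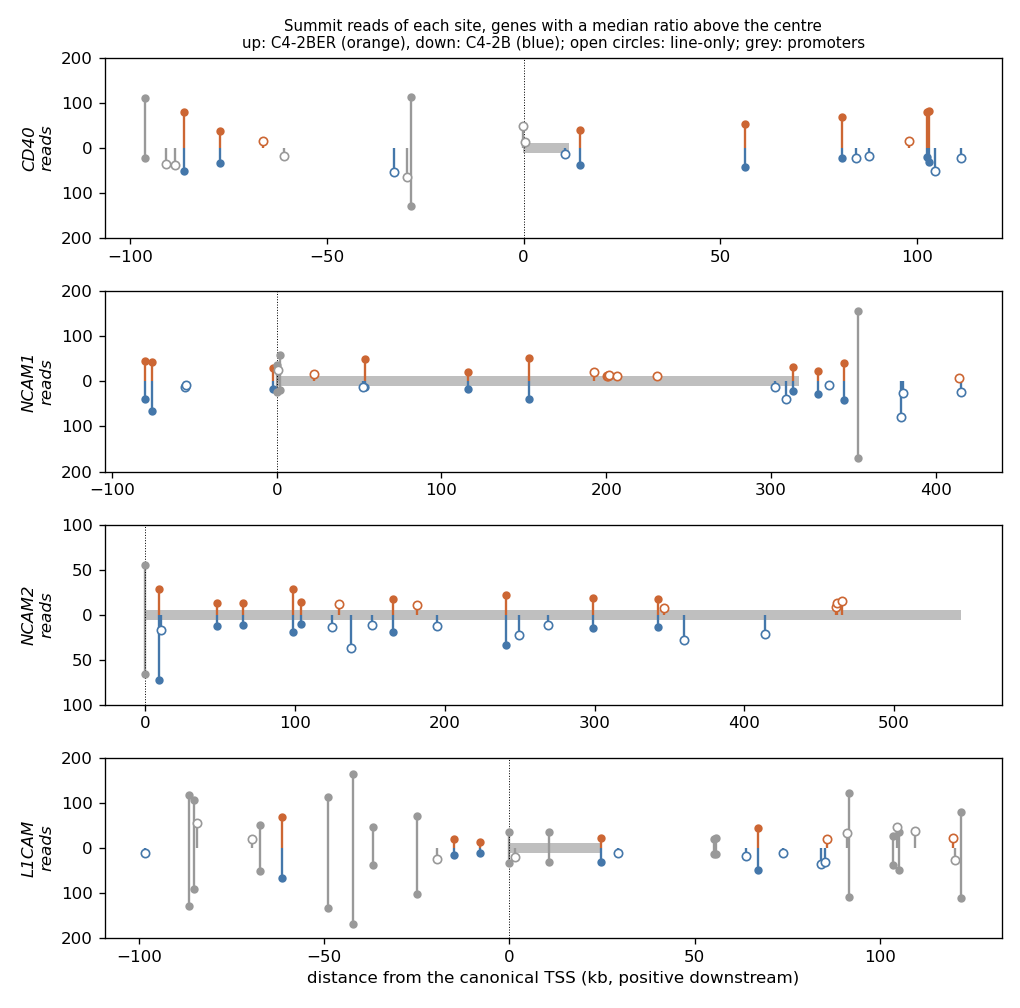
Stems give the reads over the summit of each interval, upward for C4-2BER (orange) and downward for C4-2B (blue), by distance from the canonical TSS in kb. The grey bar is the gene body, open circles are line-only, and grey stems are promoters of any gene. CD40 has tall C4-2BER stems of 81 and 83 reads near 103 kb, and NCAM1 has 7 open orange circles in intron 1.

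CD40 (ENSG00000101017, chr20:46118271-46129863, plus strand) had the highest median of the 10 genes, and all 7 of its shared distal sites were above the centre. The median was 1.11, or 2.15-fold, at percentile 99.96 of genes with at least 5 sites, and 5 of the 7 counting intervals lay above 0. With flanks of 50 kb the median was 0.62, and with 200 kb it was 0.43. None of these sites was inside CD40, a short gene, which held 1 distal interval in C4-2B (13 reads, exonic) against 0 in C4-2BER. Instead 4 of the 7 lay in the downstream gene CDH22, a cadherin, and 2 in SLC12A5, a neuronal chloride transporter upstream. Which gene these sites act on was not measured.

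The site with the highest ratio of all windows, whose sequence is the last one above, was at 103 kb from the CD40 TSS in CDH22. It had 19 reads in C4-2B (chr20:46220843-46221048) against 81 in C4-2BER, a ratio of 2.50 (1.77 to 3.31) or 5.67-fold. Next to it, a second site had 30 reads in C4-2B (chr20:46221326-46221674) against 83 in C4-2BER (ratio 1.88, 1.26 to 2.53). At 81.1 kb there were 23 reads in C4-2B (chr20:46199247-46199489) against 68 in C4-2BER (ratio 1.98, 1.27 to 2.73). The SLC12A5 site at -86.2 kb had 50 and 81 reads (ratio 1.11, 0.58 to 1.65).

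Within the same stretch of CDH22, 1.43 kb from the summit of the second site, C4-2B had 50 reads in an interval not called in C4-2BER (chr20:46222755-46223125). This is the CD40 sequence shown first, in which the androgen response element, a half-site within it and the E-box CAGCTG stand near the summit. Neighbouring sites thus differed between the lines in opposite directions. At -32.9 kb a further C4-2B-only interval had 53 reads.

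VCAN (ENSG00000038427, chr5:83471618-83582303, plus strand), the matrix proteoglycan versican, went the other way outside its promoter. It had 13 distal intervals in C4-2B against 6 in C4-2BER, and no C4-2BER-only interval. Of its 6 shared sites 5 were below the centre, and the median was -0.56, or 1.48-fold lower, at percentile 6.60 of genes. The strongest distal site of both lines, in intron 12 (chr5:83563591-83564457), had 73 reads in C4-2B against 39 in C4-2BER (ratio -0.49, -1.09 to 0.09). In intron 13 there were 45 and 18 reads (ratio -0.91, -1.79 to -0.09), and this counting interval alone of the 6 left out 0. The one site above the centre, at -41.1 kb, had 22 reads in C4-2B against 28 in C4-2BER. A further shared interval, at 2.88 kb in intron 1, is not among the 6 because its C4-2BER summit fell within a promoter. It had 59 reads in C4-2B against 109 in C4-2BER, a ratio of 1.30 (0.83 to 1.78), with the summits apart within a wide C4-2BER interval. Local background was higher here in C4-2BER, and the fold enrichment over it went the other way, at 7.59 in C4-2B against 6.43 in C4-2BER. The C4-2B-only interval whose sequence is shown had 62 reads and holds a forkhead motif. At the TSS itself the order was reversed, since C4-2BER had an interval of 49 reads and C4-2B had none. The fold enrichment of that interval over local background was 2.89.

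TNC (ENSG00000041982, chr9:115019575-115118207, minus strand), the matrix glycoprotein tenascin C, likewise had no C4-2BER-only distal interval and 8 C4-2B-only ones, out of 9 and 17. These 8 had 12 to 58 reads, and the strongest, at 149 kb, is the sequence above with 3 androgen half-sites. The shared sites did not lean to either side, with 5 of 9 above the centre and a median of 0.04 (-0.11 with depth alone removed). The strongest of both lines, at 137 kb downstream, had 83 reads in C4-2B against 78 in C4-2BER. In intron 22, 50 reads in C4-2B (chr9:115034756-115035588) stood against 17 in C4-2BER (ratio -1.14, -2.03 to -0.33).

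CD44 (ENSG00000026508, chr11:35138882-35232402, plus strand), the hyaluronan receptor, had the lowest median of the 10 genes, -0.70 or 1.63-fold lower, at percentile 3.09. Of its 11 shared sites 9 were below the centre. In its downstream flank, in the glutamate transporter gene SLC1A2, the strongest site of the window had 156 reads in C4-2B (chr11:35303927-35304818) against 29 in C4-2BER (ratio -2.02, -2.64 to -1.44). Upstream, at -77.4 kb, there were 107 reads in C4-2B (chr11:35061484-35062262) against 21 in C4-2BER (ratio -1.94, -2.69 to -1.25). At -56.5 kb there were 60 and 17 reads (ratio -1.41), and at -37.8 kb 30 and 11 (ratio -1.04, -2.18 to 0.00).

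The strongest line-only distal interval of the 10 windows was also at CD44. It had 123 reads in intron 1 of C4-2B, 19.7 kb from the TSS (chr11:35157847-35159184), ranked at percentile 95.7 by -log10 p and was not called in C4-2BER. None of the motifs matched within 75 bp of its summit. As at VCAN, the canonical TSS went the other way, with 2 C4-2BER intervals of 14 and 28 reads within 500 bp and none in C4-2B.

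RELN (ENSG00000189056, chr7:103471381-103989658, minus strand), which encodes reelin, had 35 distal intervals in C4-2B against 31 in C4-2BER. Most were shared, 25 in each list, and the 10 and 6 line-only intervals had at most 27 and 18 reads. The median was near the centre at -0.07, yet the sites spread widely, from -2.30 to 0.63. In intron 1, 59.5 kb from the TSS, 92 reads in C4-2B (chr7:103929603-103930367) stood against 14 in C4-2BER (ratio -2.30, -3.23 to -1.49). In SLC26A5 downstream there were 99 reads (chr7:103391998-103392781) against 18 (ratio -2.05, -2.86 to -1.31), and in intron 60 there were 72 (chr7:103487233-103487984) against 15 (ratio -1.85, -2.76 to -1.04). No RELN site reached 2-fold higher. The strongest C4-2B site, in intron 1 at 45.3 kb, had 118 reads against 57.

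**Figure D4:**
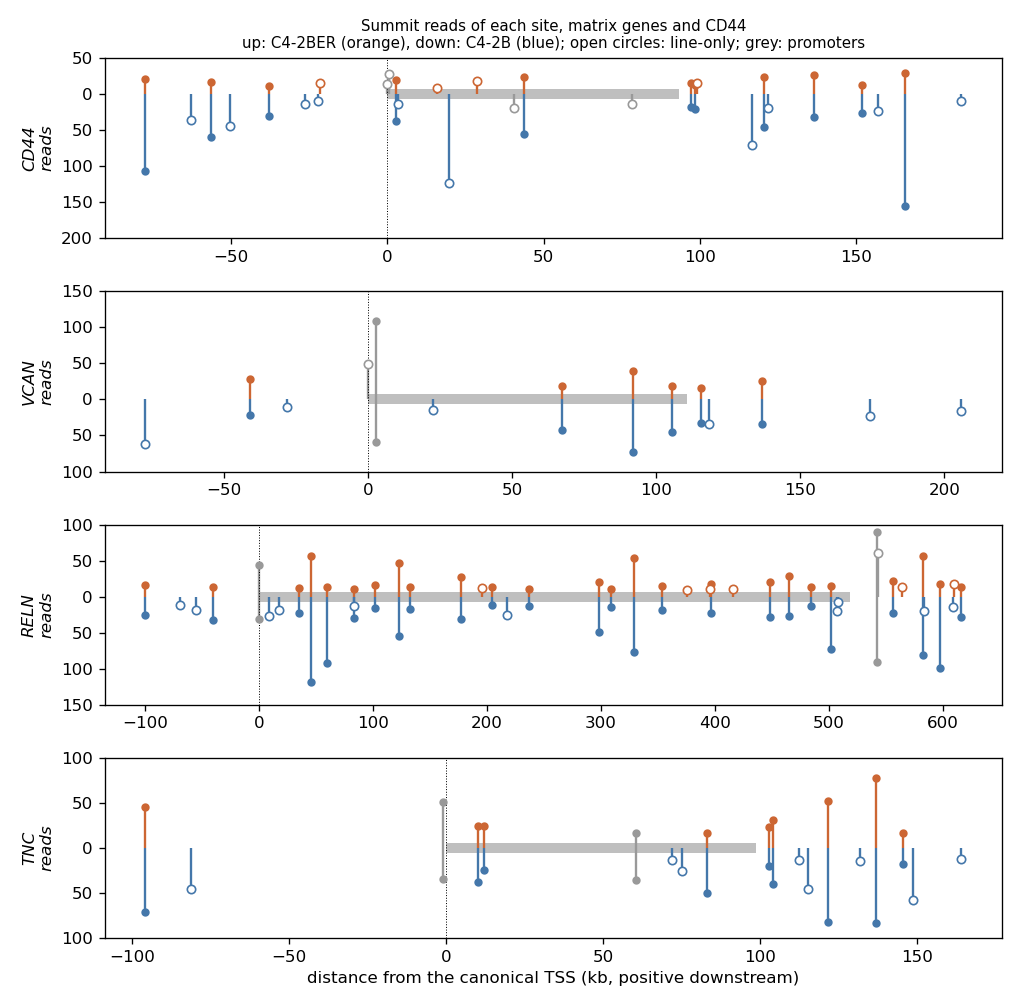
Stems give reads over the summit of each interval for CD44, VCAN, RELN and TNC, upward for C4-2BER and downward for C4-2B, by distance from the canonical TSS in kb, with symbols as in the map of CD40 and NCAM1. Long blue stems such as 156 and 107 reads at CD44 stand against orange stems of 29 and 21.

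DAB1 (ENSG00000173406, chr1:56994778-58546734, minus strand), the intracellular adaptor of the reelin receptors, spans 1551957 bp, and its canonical TSS lies inside the gene because longer transcripts start further upstream. Its 55 and 47 distal intervals included 30 C4-2B-only and 20 C4-2BER-only ones. Of 25 shared sites, 15 were above the centre, with a median of 0.14 (-0.010 with depth alone removed), and sites with a 2-fold ratio occurred in both directions. The 4 higher ones were weak, for instance 18 reads in C4-2B (chr1:58288481-58288695) against 33 in C4-2BER (ratio 1.29, 0.42 to 2.20), and 14 (chr1:56925416-56925616) and 26 in the downstream flank (ratio 1.30, 0.31 to 2.36). The lower one had 46 reads (chr1:57576625-57577148) against 15 (ratio -1.21, -2.15 to -0.34). The strongest C4-2BER-only distal interval of the 10 windows was also intronic in DAB1, with 45 reads (chr1:57638296-57638615) and a -log10 q of 33.7. The strongest shared intronic site had 127 reads in C4-2B (chr1:58183084-58183759) against 66 in C4-2BER (ratio -0.53).

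As another view, for each gene the strongest distal interval of either list was placed by its -log10 p, with 100 as the top of the list. The lists differ in length and depth, so a rank is a place in its own list, and at only 4 genes did both ranks belong to the same site. The rank was higher in C4-2BER for 5 genes, beside 30.3% of the 19427 genes with a distal interval in both lists. The difference (C4-2BER less C4-2B) had a median of -2.75 points over the 10 genes and of -2.69 over those 19427, whose quartiles were -7.72 and 0.71. CD40 stood at 74.4 in C4-2B against 90.3 in C4-2BER, and L1CAM at 79.6 and 84.0. CD44 stood at 99.0 and 66.5, and NCAM2 at 83.1 and 66.5. A higher rank did not mean a higher value. At the same TNC site the ranks were 91.3 and 92.9 while the -log10 q was 72.7 in C4-2B against 66.4 in C4-2BER. NCAM1 stood at 86.8 and 88.9, a difference that turned to -4.51 when ranked by reads, and NRCAM at 92.6 and 94.8, which turned to -4.17 by fold. VCAN stood at 88.7 and 79.8, RELN at 95.9 and 87.9 and DAB1 at 98.1 and 91.1. The order of these ranks can be seen in the plot of the strongest interval of each gene.

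**Figure D5:**
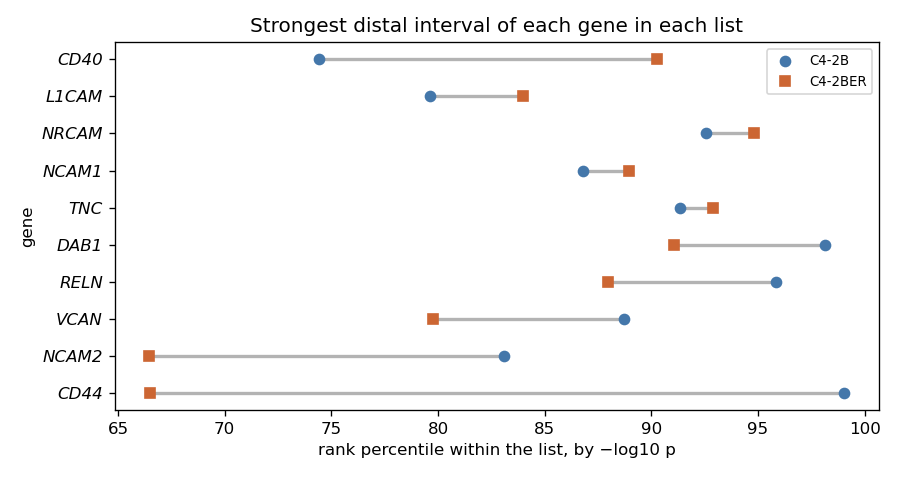
The horizontal axis is the rank percentile of the strongest distal interval of each gene within its own list, by -log10 p, for C4-2B (blue circles) and C4-2BER (orange squares). The longest line is that of CD44, from 99.0 to 66.5, and CD40 has the longest line in the other direction.

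Most alternative promoters of the 10 genes had no interval called in either line, which was also the case over all genes. GENCODE lists 27 groups of protein-coding TSSs more than 2 kb from the canonical TSS of these genes. Of these, 23 (85.2%) had no interval within 500 bp in either line, beside 74.7% of such groups over all genes. At L1CAM the promoter of shorter transcripts at 9.78 kb had an interval in both, with 32 reads in C4-2B against 36 in C4-2BER. At CD44 (41.1 kb, 19 reads) and NRCAM (128 kb, 23 reads) an alternative promoter had an interval in C4-2B only. At NRCAM another, at 143 kb, had one of 11 reads in C4-2BER only. Over the 15597 alternative groups of all genes, 17.7% had an interval in both lines, 4.26% in C4-2B only and 3.38% in C4-2BER only. NCAM1, NCAM2, TNC and DAB1 had no interval within 500 bp of any of their groups. At DAB1 no group lies upstream of the canonical TSS, so the starts of its longer transcripts were not covered. Some intervals lay beyond 500 bp but within 2 kb of an alternative TSS. At TNC a shared one at 60.4 kb had 36 reads in C4-2B against 17 in C4-2BER. At CD44 a C4-2B-only one at 78.4 kb had 14 reads.

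Motif matches were counted around all distal summits of the windows. Within 100 bp of the summit, the androgen half-site TGTTCT was found at 29 of 107 C4-2B-only intervals of the windows (27.1%, 19.6 to 36.2), 7 of 57 C4-2BER-only ones (12.3%, 6.08 to 23.2) and 17 of 120 shared ones (14.2%, 9.04 to 21.5). Over all distal intervals the shares were 23.5%, 14.0% and 17.2%, so the windows had the order of the whole lists. The forkhead motif TGTTTAC, bound by FOXA1 among others, was found at 15 of 107, 1 of 57 and 15 of 120, that is 14.0%, 1.75% and 12.5%, beside 12.5%, 6.60% and 9.89% of all. The 1 C4-2BER-only match was in NRCAM. The full androgen response element was found at 2 of 107 C4-2B-only intervals (1.87%), the one near CD40 shown above and one in NCAM2, and at 0 C4-2BER-only or shared ones. Over all distal intervals it was found at 1.71% of C4-2B-only, 0.083% of C4-2BER-only and 0.50% of shared ones.

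The core GCGTGAC of the PAX5 motif, a factor the study follows in C4-2BER, was found at 0 C4-2B-only intervals, 0 C4-2BER-only intervals and 1 shared site of the windows, the latter in NCAM2. Over all distal intervals 0.48% of C4-2B-only, 0.64% of C4-2BER-only and 0.70% of shared ones held it. At such low shares, 0 matches among so few intervals carry no weight. The study shows a Pax5 motif in regions of TNC and DAB1 that differ in accessibility, found by its own matching, and promoter intervals were not searched here. The PBX-HOX motif TGATNNAT was found at 7 of 107 C4-2B-only, 9 of 57 C4-2BER-only (15.8%, 8.54 to 27.4) and 9 of 120 shared intervals, beside 8.55%, 8.02% and 6.93% of all. Of those 9 C4-2BER-only matches 4 were at DAB1 and 2 at NCAM2. The median GC content of the 201 bases was 44.8% at both kinds of line-only interval in the windows and 46.8% at shared ones, beside 45.3%, 48.3% and 48.3% over all. A match is a string of letters and not a measured binding event.

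Among 35 related genes, namely other L1-family members, contactins, lecticans, tenascins, reelin-pathway genes, CD40-pathway genes and hyaluronan genes, 26 had more distal intervals in C4-2B against 5 in C4-2BER. The 5 were NCAN, CRKL, HAS1, HAS2 and HAS3, the last 3 of them hyaluronan synthases. Of the 33 with at least 5 shared sites, 12 had a median above the centre, and their median was -0.06, as it was over all such genes. The 2 other L1-family genes were both above the centre, CHL1 at 0.21 and NFASC at 0.16. The reelin receptor VLDLR was at -0.89 and the receptor LRP8 at 0.11. The CD40 adaptor TRAF1 was at -1.50, and the CD40 ligand gene CD40LG at 0.41.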

How the data were processed

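ATAC-seq was measured in 4 libraries, 2 of C4-2B and 2 of C4-2BER. According to the methods of the study and the submitters' processing notes, Bowtie2 aligned trimmed reads to hg38, and these were filtered at a mapping quality of 10, freed of duplicates with Picard and merged by line, and MACS2 (version not given in the sources used here) called peaks on reads extended to 200 bp. The deposited values are, per summit, a fold enrichment (a ratio to local background), a −log10 p-value and a −log10 q-value, the latter used as a score for thresholds, and the authors also deposited the summit offset in bp.

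Rows that share an interval were counted once, with the summit of highest −log10 p. Reads over a summit were recovered as the whole number that solves fold and Poisson p together, for 100% of summits within 0.001 in −log10 p (99.88% and 99.94% of 5000 simulated summits). The lowest background, 2.24 and 1.87 reads per 200 bp, gave a depth ratio of 1.20. Read intervals are exact Poisson, ratio intervals conditional binomial (Clopper-Pearson) and shares Wilson, at 95%. Shared means an overlap of 1 bp, and distal means a summit over 2000 bp from any protein-coding TSS of GENCODE release 44. Motifs were matched as letters within 100 bp of the summit on the reference of the same build. Named sites are, per gene, the strongest distal and strongest line-only interval of each list, the sites of highest ratio each way among those past 2-fold, and alternative promoters with an interval. Other sites, and the genes named among the 35 related ones, were picked after their values were seen. Some markers on the luminal list are not reported here. Members and lists were chosen with earlier results of these data known. With 1 merged list per line no test was possible, and no p-value is given. Alternatives were stricter or equal-length lists, other overlaps, flanks, promoter widths, centring and ranking. Python 3.11.15, numpy 2.4.6, pandas 2.3.3 and scipy 1.17.1 were used.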

Additional observations from a re-analysis of the deposited data

How the results depend on the processing

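The ratio medians of NCAM1, L1CAM and CD40 stayed above the centre and those of VCAN and CD44 below it under each alternative tried for them, with ranges of 0.28 to 0.85, 0.11 to 0.52, 0.43 to 1.11, -0.77 to -0.49 and -0.88 to -0.51. The count of distal intervals (228 in C4-2B, 180 in C4-2BER) was 125 and 77 at a -log10 q of at least 10, 51 and 53 in the top 50000 of each list, 128 and 113 without flanks and 370 and 290 with flanks of 200 kb. The line-only share of C4-2B (46.9%) was 34.4% for strong intervals, 54.4% at a -log10 q of at least 10, 38.5% with equal list lengths and 53.9% with 50% reciprocal overlap. That of C4-2BER (31.7%) was 10.4% for strong intervals, 43.9% with equal list lengths, 50.9% in the top 50000, 41.7% with reciprocal overlap and 38.9% without flanks. The share is thus higher in C4-2BER when lists are of equal length. The 11 sites 2-fold higher became 3 at a -log10 q of at least 10, 6 with reciprocal overlap, 5 without flanks and 6 with flanks of 50 kb, and the 10 lower became 4, 5, 5 and 6, and 18 with flanks of 200 kb. The pooled median (0.13) reversed to -0.018 with flanks of 200 kb and to -0.021 with depth alone removed. Genes with more intervals in C4-2BER (0) became 1 at a -log10 q of at least 10, without flanks or with 50 kb flanks, and 5 with equal list lengths or the top 50000. Alternative promoters in C4-2BER (2) became 1 at a -log10 q of at least 5 or 10. Gene medians that reversed were NCAM2 (-0.31 at a -log10 q of at least 10), NRCAM (-0.15 with 200 kb), TNC (-0.20 at a -log10 q of at least 10, -0.25 without flanks, -0.072 with 200 kb, -0.11 with depth alone), RELN (0.024 without flanks or with 50 kb) and DAB1 (-0.11 at a -log10 q of at least 10, -0.013 with 200 kb, -0.010 with depth alone). The rank change reversed to -4.51 for NCAM1 by reads and to -4.17 for NRCAM by fold. Fewer intervals or other windows make part of these differences, and the cause of the rest was not tested. Centring on shared sites within 5 Mb was chosen after seeing the data and reversed none of the medians. No paired analysis was possible because the libraries of a line were pooled before peaks were called, which also left no library to leave out.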
